A study of Mus musculus with 2 samples.

Results

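The guanylate-binding proteins (GBPs) of the mouse were examined here in tumour CD11b+ cells after deletion of Nrp2. The family was taken as the rows of the deposited read-count table whose Ensembl identifier carries the symbol Gbp2, Gbp2b, Gbp3, Gbp4, Gbp5, Gbp6, Gbp7, Gbp8, Gbp9 or Gbp10. All 10 were found among the 49585 genes of the table, and all 10 had reads in both libraries. The tested library, labelled Test NRP2 KO, came from tumour-bearing mice given tamoxifen every day once their tumours could be felt. The other library, labelled Control, came from mice of the same NRP2f/fCSF1R-iCRE line on a BL6 background, for which the labels name neither tamoxifen nor a vehicle. Both groups therefore carry the floxed Nrp2 alleles and the inducible recombinase, which the Csf1r promoter drives in monocytes and macrophages, and the drug and the deletion differ together and cannot be told apart. Tumours were grown under the skin from mouse pancreatic cancer cell lines and taken at 15 days, CD11b+ cells were pulled from the digested tissue with magnetic beads, and RNA of 3 animals was pooled into 1 library per group. CD11b, encoded by Itgam, is an integrin chain of monocytes, macrophages and granulocytes.

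GBPs are large GTPases of the dynamin superfamily, among the transcripts that interferon gamma induces most strongly in macrophages. They assemble on the membranes of vacuoles that hold parasites or bacteria and on bacteria in the cytosol, and they help inflammasomes, the protein complexes that activate inflammatory caspases, to detect microbial products. Interferon gamma acts through its receptor and the kinases JAK1 and JAK2 on gamma-activated sites in the DNA, and it induces further factors such as IRF1, which binds interferon-stimulated response elements.

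Each group is a single pooled library, so spread between animals was not measured and no test was run. The NRP2 KO library held 68554172 counted reads and the control library 64153676. Levels are given as CPM, the count relative to the library's total after TMM scaling, and ratios are NRP2 KO over control, each with a 95% interval by the exact Clopper-Pearson method. Where a gene had over 4 reads in 1 library and 0 in its counterpart, the median count was 24 in the NRP2 KO library and 47 in the control library. Counts were divided by these medians before the intervals were taken, as an estimate of the number of captured fragments. They cover counting error only, not differences between animals. Nrp2, the targeted gene, had 1017 reads in the NRP2 KO library and 9686 in the control library, or 15.2 and 147.5 CPM, and was 9.72-fold lower (6.95 to 13.9). The CD11b gene Itgam, the macrophage colony-stimulating factor receptor gene Csf1r and the macrophage gene Adgre1 were well read in both libraries, with Itgam at 421.5 CPM in the NRP2 KO library and 294.0 CPM in the control library.

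The family lies in 2 clusters of the GRCm38 genome. On the plus strand of chromosome 3 the order is Gbp5 (ENSMUSG00000105504, chr3:142493978-142522344), Gbp7 (ENSMUSG00000040253, chr3:142530342-142550149), Gbp3 (ENSMUSG00000028268, chr3:142560026-142573209), Gbp2b (ENSMUSG00000040264, chr3:142594847-142619179) and Gbp2 (ENSMUSG00000028270, chr3:142620602-142638008). On chromosome 5, along the plus-strand coordinates, the minus-strand genes are Gbp8 (ENSMUSG00000034438, chr5:105014150-105139540), Gbp9 (ENSMUSG00000029298, chr5:105077630-105139539), Gbp4 (ENSMUSG00000079363, chr5:105115767-105139586), Gbp10 (ENSMUSG00000105096, chr5:105215699-105239533) and Gbp6 (ENSMUSG00000104713, chr5:105270702-105293698). Gbp11 (chr5:105323042-105346472), a polymorphic pseudogene in the annotation, follows. Gbp8, Gbp9 and Gbp4 overlap, and share at most 61 bases of exon. RefSeq promoters of GRCm38.p6 were matched by symbol for 5 members, Gbp5, Gbp7, Gbp3, Gbp2b and Gbp2. The 250 bases before the RefSeq start site are shown for the most read member (Gbp2), the member with the lowest ratio (Gbp2b) and a pair of neighbours with a ratio below 1 and a ratio above 1 (Gbp5 and Gbp7), 5′ to 3′ on the plus strand. Capitals mark matches on either strand to the gamma-activated site TTCNNNGAA or to the core of the interferon-stimulated response element, which is GAAA, any 2 bases and GAAA. The GENCODE genes start at other bases than the RefSeq promoters in part, so the window of Gbp5 lies inside the annotated gene and that of Gbp2 reaches into it.
Gbp2 (chr3:142620413-142620662): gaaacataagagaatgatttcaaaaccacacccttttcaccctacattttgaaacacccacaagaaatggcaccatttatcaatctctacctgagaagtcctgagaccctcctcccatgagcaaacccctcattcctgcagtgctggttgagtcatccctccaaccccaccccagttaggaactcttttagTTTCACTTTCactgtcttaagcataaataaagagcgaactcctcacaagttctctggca
Gbp2b (chr3:142594597-142594846): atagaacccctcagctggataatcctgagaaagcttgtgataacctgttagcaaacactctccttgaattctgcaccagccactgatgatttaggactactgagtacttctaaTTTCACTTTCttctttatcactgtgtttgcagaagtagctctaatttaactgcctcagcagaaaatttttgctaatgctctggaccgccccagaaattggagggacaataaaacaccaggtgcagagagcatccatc
Gbp5 (chr3:142496684-142496933): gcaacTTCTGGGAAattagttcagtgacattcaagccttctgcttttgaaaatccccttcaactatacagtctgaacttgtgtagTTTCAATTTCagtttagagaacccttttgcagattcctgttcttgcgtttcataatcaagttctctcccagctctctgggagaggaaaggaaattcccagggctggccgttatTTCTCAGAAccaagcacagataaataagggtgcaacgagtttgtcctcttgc
Gbp7 (chr3:142530086-142530335): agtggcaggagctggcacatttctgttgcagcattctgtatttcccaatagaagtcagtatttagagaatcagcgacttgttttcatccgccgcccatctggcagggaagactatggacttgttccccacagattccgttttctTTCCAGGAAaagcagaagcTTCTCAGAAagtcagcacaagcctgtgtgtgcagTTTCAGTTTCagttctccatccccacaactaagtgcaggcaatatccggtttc

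All 5 genes with a RefSeq promoter held at least 1 match to the response element core in the window of 250 bases before to 50 after a start site, where 3.44% of all 32851 RefSeq promoters held one. The match was TTTCACTTTC in Gbp2 (positions -59 to -50 from the start site) and the same letters in Gbp2b (-137 to -128), TTTCAATTTC in Gbp5 (-165 to -156) and TTTCAGTTTC in Gbp7 (-53 to -44). Gbp3 has 2 promoters in the table, of which the first held 2 overlapping matches, TTTCAGTTTC and TTTCTATTTC, and the second held none. Gamma-activated sites, which 8.3% of all promoters held, were matched only in Gbp5 and Gbp7 among these genes, with 2 in each, and both kinds together were in 0.454% of all promoters. A match is a run of letters and was not tested as a binding site.

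Most GBPs were lower in the NRP2 KO library. Summed over the 10 genes, the family had 71752 reads in the NRP2 KO library and 107396 in the control library, or 1071.1 and 1635.8 CPM, and was 1.53-fold lower (1.45 to 1.61). Gbp2, Gbp2b, Gbp3, Gbp4, Gbp5 and Gbp8 had intervals wholly below 1, Gbp9 had an interval wholly above 1, and those of Gbp6, Gbp7 and Gbp10 included 1. Over both libraries 14420 genes had 50 reads or more, of which 11.1% had an interval below 1 and 12.6% one above 1. Of the 9054 genes with at least 1000 reads, the shares were 15.2% and 18.7%, beside 6 and 1 of the 9 members that pass this limit. By fold size the family's count was near the background. At least 2-fold lower were 2 of the 10 members, Gbp2b and Gbp10, and at least 2-fold higher 0, where 14.7% and 10.8% of all genes were. With at least 1000 reads, 1 of 9 members was at least 2-fold lower and 0 higher, where 4.02% and 4.5% of genes were. The median log2 ratio of the 10 members was -0.77, and that of all genes with at least 50 reads -0.01. In bulk RNA, fewer cells that express a gene and less of its RNA per cell cannot be told apart.

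**Figure D1:**
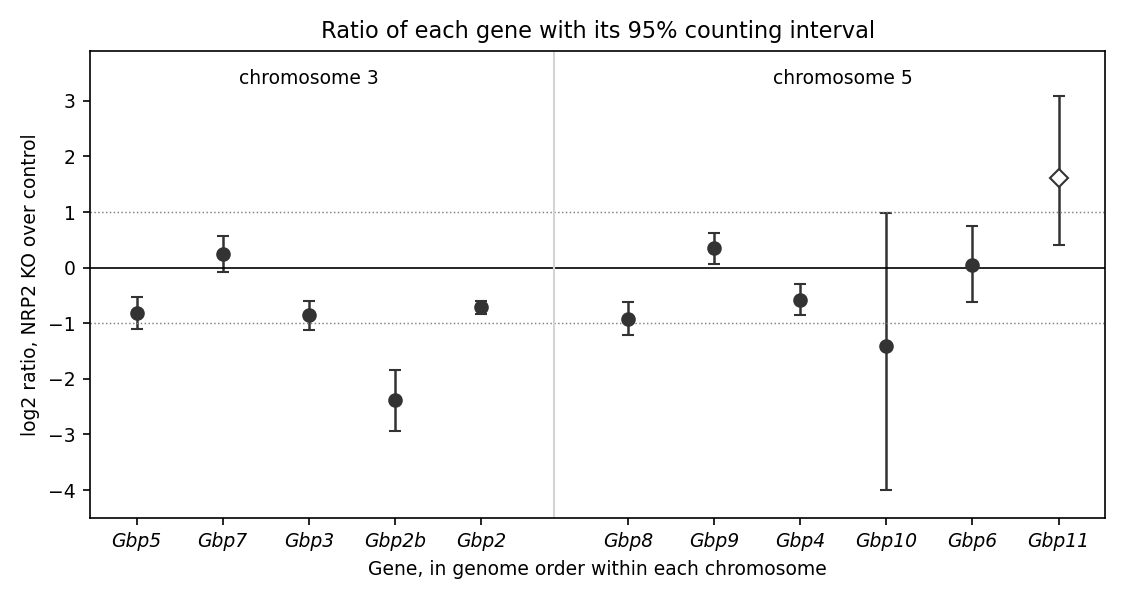
Log2 ratio, NRP2 KO over control, of each member in genome order on chromosomes 3 and 5 (filled circles) and of the neighbouring pseudogene Gbp11 (open diamond), from 1 library per group; bars are 95% counting intervals and dotted lines mark 2-fold. Gbp2b lies lowest at -2.38, while Gbp7 at 0.24 and Gbp9 at 0.35 lie above 0 between neighbours that lie below it.

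On chromosome 3, Gbp2, a prenylated member that restricts Toxoplasma and is needed for inflammasome responses to Gram-negative bacteria, was the most read GBP in both libraries. It had 31773 reads in the NRP2 KO library and 51063 in the control library, or 474.3 and 777.7 CPM, and was 1.64-fold lower (1.51 to 1.78). Gbp2b, its neighbour and also a prenylated protein, formerly named Gbp1, had 1007 and 5139 reads, or 15.0 CPM in the NRP2 KO library and 78.3 CPM in the control library. It was 5.21-fold lower (3.62 to 7.62). Its interval did not overlap those of Gbp2, Gbp3, Gbp4, Gbp5 and Gbp8, the other members with intervals below 1, whose folds lay between 1.5 and 1.89. Of the reads of Gbp2 and Gbp2b together, Gbp2b took 3.07% in the NRP2 KO library (2.22 to 4.13) and 9.14% in the control library (7.57 to 10.9). The members of this pair share 51 of the 50-base windows of their transcripts with each other, or 1.84% of those of Gbp2b.

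Gbp5, a prenylated member that promotes inflammasome assembly, was at 76.8 CPM in the NRP2 KO library and 135.9 CPM in the control library, 1.77-fold lower (1.45 to 2.16). Gbp3 was at 93.3 CPM in the NRP2 KO library and 169.7 CPM in the control library, 1.82-fold lower (1.52 to 2.18). Gbp7 lies between these genes and is known for carrying NADPH oxidase subunits to vacuoles that hold bacteria. It had 6394 reads in the NRP2 KO library and 5312 in the control library, or 95.5 and 80.9 CPM, a ratio of 1.18 whose interval, 0.943 to 1.48, included 1 and did not overlap that of any of the 6 lower members. Gbp7 made up 55.4% of the reads of Gbp5 and Gbp7 in the NRP2 KO library (50.9 to 59.9) and 37.3% in the control library (31.9 to 43.0). Of the exon bases of Gbp7, 637 (11.3%) are also those of Gm43802, a gene on the same strand whose exons lie wholly within them. Gm43802 had 0 reads in both libraries. How reads that match several genes were treated is not given, so this 0 is not a measure of its level.

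On chromosome 5, Gbp4, a member reported to restrain antiviral signalling through IRF7, was at 89.7 CPM in the NRP2 KO library and 134.3 CPM in the control library, 1.5-fold lower (1.23 to 1.82). Gbp8 had 4551 reads in the NRP2 KO library and 8436 in the control library, or 67.9 and 128.5 CPM, and was 1.89-fold lower (1.53 to 2.33). Gbp9, whose annotated 5′ end lies 1 base from that of Gbp8, had 9149 and 7037 reads, or 136.6 CPM in the NRP2 KO library and 107.2 CPM in the control library, and was 1.27-fold higher (1.05 to 1.55). Gbp9 thus held 66.8% of the reads of this pair in the NRP2 KO library (62.8 to 70.6) and 45.5% in the control library (40.0 to 51.0). Of the 50-base windows, 18.1% of those of Gbp8 and 8.05% of those of Gbp9 occur also in another member or in Gbp11. Gbp8 shared most with Gbp11, at 253 windows. A part of the reads of Gbp8 and Gbp9 may thus have been split or dropped in the counting. The 5 members on chromosome 3 were together 1.65-fold lower (1.54 to 1.75) and the 5 on chromosome 5 1.24-fold lower (1.12 to 1.38), intervals that do not overlap. The chromosome 5 sum depends much on Gbp9, which alone held 9149 of its 21183 reads in the NRP2 KO library and 7037 of 25820 in the control library. A difference between the clusters apart from Gbp9 was not tested.

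The last pair, Gbp6 and Gbp10, had few reads and cannot be told apart with certainty. Gbp6 had 1396 reads in the NRP2 KO library and 1321 in the control library, a ratio of 1.04 (0.65 to 1.69). Gbp10 had 80 and 209 reads, or 1.19 CPM in the NRP2 KO library and 3.18 CPM in the control library, and its 2.67-fold lower value rests on so few fragments that the interval of the ratio ran up to 1.99. Of the 50-base windows of Gbp10, 84.1% occur also in another gene, as do 70.7% of those of Gbp6. Gm43302, on the same strand, overlaps exons of both and had 42 reads in the NRP2 KO library and 4 in the control library. Summed as 1 unit, Gbp6 and Gbp10 had 1476 reads in the NRP2 KO library and 1530 in the control library, with an interval of the ratio of 0.609 to 1.49. Gbp11, which is not among the members, had 955 reads in the NRP2 KO library and 305 in the control library and was 3.07-fold higher (interval 1.33 to 8.46). It shares 19.2% of its windows with the members.

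Levels of the genes were compared with each other per kilobase of all annotated exons of a gene (RPKM). Gbp2 led in both libraries, at 188.5 RPKM in the NRP2 KO library and 309.1 RPKM in the control library. In the NRP2 KO library it was followed by Gbp3 (28.6 RPKM), Gbp9 (26.4 RPKM), Gbp8 (19.7 RPKM), Gbp7 (17.0 RPKM), Gbp4 (12.0 RPKM), Gbp5 (11.6 RPKM), Gbp2b (5.33 RPKM), Gbp6 (3.5 RPKM) and Gbp10 (0.308 RPKM). Neighbours in this order with overlapping counting intervals were Gbp3 and Gbp9, Gbp8 and Gbp7, Gbp4 and Gbp5, and Gbp2b and Gbp6. In the control library the order after Gbp2 was Gbp3 (52.0 RPKM), Gbp8 (37.3 RPKM), Gbp2b (27.7 RPKM), Gbp9 (20.7 RPKM), Gbp5 (20.5 RPKM), Gbp4 (17.9 RPKM), Gbp7 (14.4 RPKM), Gbp6 (3.38 RPKM) and Gbp10 (0.822 RPKM). There each neighbour from Gbp8 down to Gbp7 had an interval that overlapped the next. Gbp2b thus stood at place 8 in the NRP2 KO library and at place 4 in the control library, Gbp9 at 3 and 5, and Gbp7 at 5 and 8. Gbp2 made up 44.3% of the family's reads in the NRP2 KO library (42.5 to 46.1) and 47.5% in the control library (45.5 to 49.6).

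**Figure D2:**
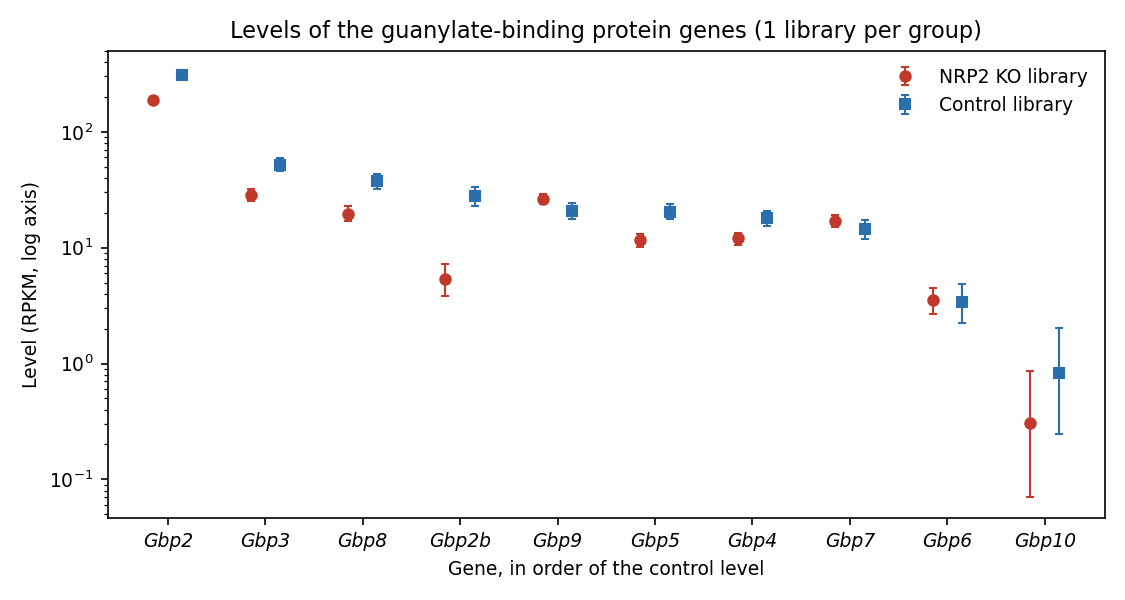
Level of each member in RPKM (log axis) in the NRP2 KO library (circles) and the control library (squares), with 95% counting intervals and 1 library per group. Gbp2 is highest in both libraries, and Gbp2b shows the widest gap among the well-read members, at 5.33 RPKM in the NRP2 KO library and 27.7 RPKM in the control library.

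**Figure D3:**
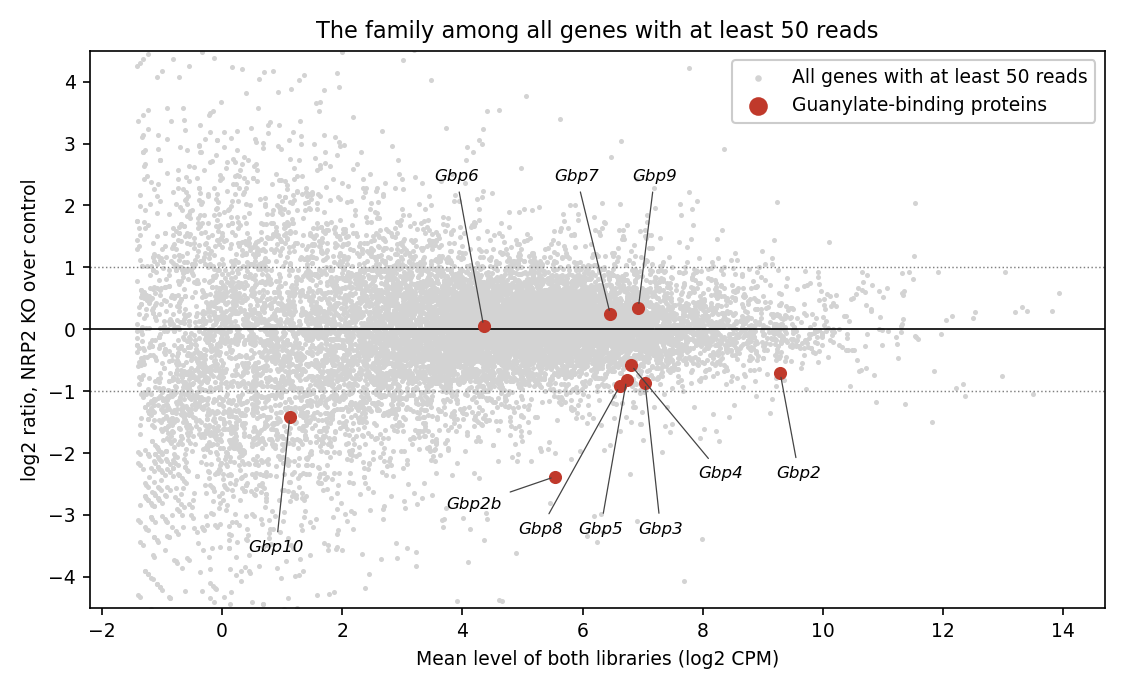
Log2 ratio, NRP2 KO over control, against the mean level of both libraries (log2 CPM) for genes with at least 50 reads (grey) and the members (red); 912 genes with an absolute log2 ratio above 4.5 lie outside the plot. Gbp2b and Gbp10 lie below the dotted line of 2-fold, and Gbp10 lies among genes with few reads and a wide spread.

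Over these libraries, the 5 genes whose pair of log2 CPM values lay nearest to that of Gbp2 were Coro1a, Cxcl9, Cd52, Pld4 and Adgre1, at distances of 0.038 to 0.182 log2 units. With 2 libraries this says only that both levels were alike. The nearest was Coro1a, at 481.1 CPM in the NRP2 KO library and 760.7 CPM in the control library.

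Of 15 genes of interferon gamma signalling, the path that induces GBPs, 5 had an interval below 1 and 1 an interval above 1. Among all genes with at least 1000 reads the shares were 15.2% and 18.7%. The median log2 ratio of the list was -0.28. The ligand gene Ifng, chosen for mention after its values were seen, had 267 reads in the NRP2 KO library and 558 in the control library, 2.13-fold lower with an interval of the ratio, 0.188 to 1.16, that included 1. Of the receptor chains, Ifngr1 was at 396.1 CPM in the NRP2 KO library and 279.4 CPM in the control library, 1.42-fold higher (1.26 to 1.6). The kinase genes Jak1 and Jak2 had ratios of 1.1 (0.97 to 1.24) and 0.914 (0.788 to 1.06). Irf1 was at 353.2 CPM in the NRP2 KO library and 368.9 CPM in the control library, a ratio of 0.958 (0.86 to 1.07). Irf8, a factor of the myeloid lineage, was 1.29-fold lower (1.14 to 1.45) and Irf9, a factor of interferon signalling, 1.31-fold lower (1.03 to 1.65). Ciita, the transactivator of MHC class II genes, was 2.4-fold lower (1.97 to 2.92).

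Other genes that interferon gamma induces were lower in part. Of 16 listed, 15 had at least 50 reads, and 8 of these had an interval below 1 and 2 an interval above 1. Among all genes with at least 1000 reads the shares were 15.2% and 18.7%. The median log2 ratio of the list was -0.33. Ido1, the remaining gene, had 0 reads in both libraries, a count that leaves room for 3 fragments in each, equal to 72 reads in the NRP2 KO library and 141 in the control library. The chemokine gene Cxcl9 was at 471.8 CPM in the NRP2 KO library and 833.6 CPM in the control library, 1.77-fold lower (1.63 to 1.91), and Cxcl11 was 2.58-fold lower (1.5 to 4.49). Of the immunoproteasome genes, Psmb8 was 1.69-fold lower (1.52 to 1.88) and Psmb9 1.84-fold lower (1.54 to 2.2). The peptide transporter gene Tap1 was 1.48-fold lower (1.32 to 1.66). Cd274, which encodes the checkpoint ligand PD-L1, was 1.2-fold higher (1.1 to 1.32). Acod1, which makes itaconate, was 1.12-fold higher with an interval that starts at 1.0, and Ccl5 had a ratio of 0.886 (0.78 to 1.01).

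The immunity-related GTPases act beside the GBPs on vacuoles that hold parasites. In the list of 10 such and other interferon-induced GTPases, 5 had an interval below 1 and 0 an interval above 1. Among all genes with at least 1000 reads the shares were 15.2% and 18.7%. The median log2 ratio of the list was -0.42. Igtp (also Irgm3) was at 57.3 CPM in the NRP2 KO library and 131.2 CPM in the control library, 2.29-fold lower (1.84 to 2.85), and Tgtp2, which has a near-identical copy in Tgtp1, was 2.32-fold lower (1.5 to 3.59). Irgm1, which controls where other members of its family load, was 1.24-fold lower (1.04 to 1.47). Ifi47 was 1.35-fold lower (1.11 to 1.63), as was Irgm2 by 1.46-fold (1.03 to 2.06). The antiviral GTPase gene Mx1 had a ratio of 0.891 (0.591 to 1.36).

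Of 10 genes of inflammasomes, to which GBPs deliver microbial products, 4 had an interval below 1 and 2 an interval above 1. Among all genes with at least 1000 reads the shares were 15.2% and 18.7%. The median log2 ratio of the list was -0.15. The cytokine gene Il1b was at 1589.7 CPM in the NRP2 KO library and 3674.9 CPM in the control library, 2.31-fold lower (2.22 to 2.41), and the pore-forming gasdermin gene Gsdmd was 1.35-fold lower (1.13 to 1.61). The adaptor gene Pycard was 1.45-fold higher (1.2 to 1.76) and Aim2, a sensor of cytosolic DNA, 1.43-fold higher (1.09 to 1.9). Nlrp3, Casp1 and Casp4 had ratios of 1.03, 0.873 and 1.26 with intervals that included 1, and the sensor gene Nlrc4 was 1.71-fold lower (1.09 to 2.68). The 5 listed genes of the enzymes that attach and process the lipid anchor of prenylated GBPs were Fnta, Fntb, Pggt1b, Rce1 and Icmt. All had intervals that included 1, with log2 ratios from -0.37 to 0.25. Of all genes with at least 50 reads, 11.1% had an interval below 1 and 12.6% one above 1, so for 5 genes this count is near the background. Some of these intervals are wide, as for Fntb (0.396 to 4.22), and do not show that levels were unchanged. Of 8 genes of the ubiquitin-like conjugation that places these GTPases on vacuoles, Atg7 was 1.5-fold higher (1.13 to 2.03), Atg16l1 1.45-fold higher (1.04 to 2.05) and Gabarapl2 1.71-fold lower (1.2 to 2.42). The ratios of Map1lc3b, Atg3, Atg5 and Atg12 lay between 1.09 and 1.16 with intervals that included 1.

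Of 14 genes of the type I interferon pathway, 3 had an interval above 1 and 2 an interval below 1, shares near those of all genes with 1000 reads or more (18.7% and 15.2%), and the median log2 ratio was 0.25. Rsad2, which encodes the antiviral enzyme viperin, was at 196.1 CPM in the NRP2 KO library and 79.4 CPM in the control library, 2.47-fold higher (2.01 to 3.06). Irf7, a driver of type I interferon transcription, was 1.77-fold higher (1.48 to 2.13) and Ifit1 1.99-fold higher (1.3 to 3.12). Oasl2 was 1.5-fold lower (1.25 to 1.81) and the kinase gene Tyk2 1.31-fold lower (1.05 to 1.62). The receptor genes Ifnar1 and Ifnar2 had ratios of 0.941 (0.815 to 1.09) and 1.01 (0.821 to 1.24).

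Marker genes of several other cell types were lower too, among them those of T cells, known producers of interferon gamma. All 8 listed T cell genes had an interval below 1, where 11.1% of all genes with at least 50 reads did, and no gene was at 0. Their summed levels were 57.1 CPM in the NRP2 KO library and 176.6 CPM in the control library, 3.09-fold lower (2.53 to 3.8). Cd4 alone was at 35.0 and 100.2 CPM and so carries most of these sums. The 6 listed genes of NK cells and cytotoxic lymphocytes summed to 39.7 CPM in the NRP2 KO library and 114.6 CPM in the control library. Of these, Nkg7, Gzmb, Prf1 and Klrk1, which cytotoxic T cells also express, had intervals below 1. The NK cell genes Ncr1 (ratio 1.18, 0.0536 to 131.3) and Klrb1c (ratio 0.563, 0.172 to 1.89) had few reads and intervals that included 1. The 6 conventional dendritic cell genes summed to 88.5 CPM in the NRP2 KO library and 229.1 CPM in the control library. Ccr7 alone was at 57.3 and 153.5 CPM. Xcr1 had 0 reads in the NRP2 KO library and 111 in the control library, and its interval included 1. The 5 endothelial genes summed to 21.5 CPM in the NRP2 KO library and 85.5 CPM in the control library. Pecam1 alone was at 16.4 and 62.2 CPM, and the interval of Cdh5 included 1. The 5 B cell genes summed to 4.87 and 24.2 CPM, and only Cd79b had an interval below 1. Pax5 had 0 reads in the NRP2 KO library and 56 in the control library, and its interval included 1. The 6 fibroblast genes summed to 201.1 CPM in the NRP2 KO library and 349.4 CPM in the control library, sums that Col1a1, Col1a2 and Col3a1 mostly carry. Pdgfra (ratio 1.52) and Dcn (ratio 1.05) were not lower, with intervals that included 1. The 6 epithelial tumour cell genes summed to 120.8 and 188.2 CPM. Krt19, Muc1 and Cdh1 had intervals below 1, with Cdh1 alone at 34.4 and 70.9 CPM, while those of Epcam, Krt8 and Krt18 included 1. The 6 monocyte genes summed to 4511.2 CPM in the NRP2 KO library and 2850.8 CPM in the control library, sums that 1 gene carries, since Fn1 alone was at 4062.7 and 1788.1 CPM. Ly6c2 was 2.75-fold higher (2.14 to 3.56), while Ccr2, Plac8, Cx3cr1 and Treml4 were lower by 2.66-fold to 9.23-fold, and the median log2 ratio of the list was -1.54. The 7 neutrophil genes summed to 1265.7 CPM in the NRP2 KO library and 1008.5 CPM in the control library. S100a8, S100a9 and Ngp had intervals above 1 and Retnlg, with a ratio of 0.804, an interval below 1. Csf3r and Cxcr2 both had a ratio of 0.985 with intervals that included 1. Ly6g had 96 reads in the NRP2 KO library and 0 in the control library, and its interval included 1 too. The 8 macrophage genes summed to 11344.1 CPM in the NRP2 KO library and 11349.4 CPM in the control library, but no single one had an interval that included 1. Itgam, Mrc1 and Mertk were higher, by 1.43-fold to 3.57-fold, and Csf1r, Adgre1, Fcgr1, C1qa and C1qb lower, by 1.08-fold to 1.37-fold. The part of these cells in the lower GBP levels was not tested.

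Of 8 listed regulators of interferon gamma production, 1 had an interval below 1 and 1 an interval above 1. These shares are near those of all genes with at least 50 reads (11.1% and 12.6%). Their summed level had a ratio of 1.26 (0.98 to 1.62), while the median log2 ratio of the list was -0.3. Il12b, which encodes a subunit of the inducing cytokine, had 110 reads in the NRP2 KO library and 565 in the control library, 5.24-fold lower (1.67 to 20.1). Il18rap, a chain of the receptor of another inducing cytokine, was 2.08-fold higher (1.41 to 3.14). It alone held 3290 of the 5421 summed reads in the NRP2 KO library and 1550 of 4230 in the control library, and so carries the ratio of the sum. Il12rb1, Il12rb2, Il18r1 and Tbx21 had intervals that included 1.

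In the authors' deposited table, the log2 fold change of Gbp2b was -2.37 with a standard error of 0.82 and an adjusted p of 0.71, and no other member had a smaller adjusted p. The table gives log2 fold changes of -0.7 for Gbp2, -0.85 for Gbp3 and 0.36 for Gbp9.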

How the data were processed

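RNA of CD11b+ tumour cells was sequenced from 1 NRP2 KO and 1 control library, grouped by sample title. The kit keeps strand, per the labels' protocols, and cutadapt, HISAT2, featureCounts and GRCm38 are named by the submitters' processing notes. Not given in the sources used here are versions, the annotation release, whether counting used the strand and how reads that match several genes were treated. Per Ensembl gene the authors deposited raw read counts as whole numbers. The authors' deposited table also holds a signal, which is each count divided by 1 constant per library (1.005 for NRP2 KO and 0.9949 for control, as checked on the values), a log2 fold change, its standard error (log2), a score equal to the fold change over that error, and p-values, from a tool not stated. No molecular identifiers are named, so reads are not independent molecules.

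Symbols, coordinates and exon lengths came from GENCODE M21 (GRCm38), which held 49326 of the 49585 identifiers. Library sizes were scaled with TMM factors (edgeR 4.0.16, R 4.3.3), 0.977129 for NRP2 KO and 1.02341 for control. Log2 ratios used a prior of 0.5 counts, and counts over genes used those with at least 50 reads. Ratios in the text without a log are of CPM. Interval and ratio code was tested on simulated data. There every gene of a library had the same number of reads per fragment, so the estimate of that number was not itself checked. Alternatives were DESeq2 1.42.0 size factors, upper-quartile and total-count scaling, other count limits, a prior of 5, undivided reads and the authors' fold changes. The 50-base windows come from GENCODE transcripts and stand in for reads.

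The members, the 8 pathway and 10 marker lists and the rules were chosen with earlier results of these data known. Named were all members, Gbp11, Nrp2, up to 6 most-read genes of each pathway list with at least 50 reads, up to 2 others with the largest ratio and an interval excluding 1, and the 5 genes nearest to the most-read member; others named were chosen after their values were seen, and 1 gene that the rule names is not reported here. List genes were counted, not tested.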

Additional observations from a re-analysis of the deposited data

How the results depend on the processing

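The direction of the members with an interval excluding 1, of their sum and of Nrp2 was kept under DESeq2 size factors, upper-quartile scaling, total counts and a prior of 5. Another scaling moved the median log2 ratio of all genes to between -0.08 and 0.0, against -0.01 under TMM. Without Gbp2 the summed family's log2 ratio was -0.52, against -0.61 with it. With a limit of 1000 reads, which Gbp10 does not reach, 1 member was at least 2-fold lower, against 2, and 364 genes were at least 2-fold lower and 407 higher in all, against 2124 and 1558 at 50 reads. With no limit on reads 3272 genes were lower and 4131 higher. On undivided reads the intervals of Gbp7 (1.14 to 1.22) and Gbp10 (0.286 to 0.488) excluded 1 too. With the limit of 1000 reads the median log2 ratio turned to 0.6 for the interferon gamma inducers, against -0.3. Of that list only Il12rb1 and Il18rap reach the limit. The median turned to -0.12 for the prenylation enzymes, against 0.08, where Fntb does not reach the limit. No paired analysis was possible because each group has 1 library, and no replicate could be left out. Depth limits Gbp10 and Gbp6, whose few fragments leave wide intervals, and the counting intervals say nothing of differences between animals.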
